A study of Mus musculus with 12 samples.

Results

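The transcription factors that steer CD8 T cells between effector and memory fates were followed in spleen CD8 T cells of cTKO and WT mice. They are Tbx21, Eomes, Zeb1, Zeb2, Id2, Id3, Prdm1, Bcl6, Tcf7 and Lef1. They were chosen by gene symbol, with earlier results of these data known, and all 10 were found among the 24421 genes of the CD8 comparison. The compared groups were cTKO mice and WT mice. The labels do not spell out cTKO. It was read as deletion of 3 linker histone genes (Hist1h1c, Hist1h1d and Hist1h1e), because these had 0 reads in both libraries of a genotype. Both groups were C57BL/6 mice with 1 female and 1 male animal each, and no treatment, age or Cre driver is given in the labels. From each animal 500000 CD8 T cells had been sorted from spleen, and polyadenylated RNA was sequenced with paired ends. Nothing beyond the labelled animals describes the replicates, so no p-value reaches beyond these 4 animals. Each p-value sets the genotypes against the spread within them, estimated with help from other genes. Within a genotype the animals differ in sex, so that spread includes any effect of sex.

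Tcf7 (which codes for TCF-1), Lef1, Id3, Bcl6 and Zeb1 act in naive or memory CD8 T cells, and are grouped here as the naive and memory side. On activation, the T-box factors encoded by Tbx21 (T-bet) and Eomes switch on cytotoxic genes, while Zeb2, Id2 and Prdm1 (Blimp-1) drive terminal effector differentiation. These 5 are grouped here as the effector side, although Eomes is also shared by memory CD8 T cells. Several factors of the opposing sides are paralogues or mutual repressors, such as Id2 and Id3, Zeb2 and Zeb1, or Prdm1 and Bcl6, so their balance is often read as a sign of where a cell stands.

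Values are reads divided by the size factor of their library (normalized reads). The whole reads behind each deposited mean were solved for library by library, which gave 10575664 to 17206151 reads in each of the 4 libraries. For each genotype the larger library is given before the smaller one. The genotype of a library is known from this step and its animal is not. The numerator of the fold changes is not named in the table. They were read as cTKO over WT because the linker histone genes taken as deleted in cTKO are negative. Hist1h1e had 0 reads in both libraries so read as cTKO, against 64 and 112 in WT libraries. Hist1h1c had 0 in both, against 41 and 56, and Hist1h1d had 0 in both, against 5 and 11. These genes set both the reading of cTKO and the direction, and so are no separate check of either or of the labels.

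All 5 effector-side factors (Tbx21, Eomes, Zeb2, Id2 and Prdm1) were higher in cTKO CD8 T cells. The split by side depends on placing Eomes, which memory cells share, on the effector side. On the naive and memory side Id3 was lower, and Zeb1, Bcl6, Tcf7 and Lef1 did not pass the test. So 5 of 10 factors were called higher and 1 lower at an adjusted p under 0.05 in the authors' deposited table, where 9.77% of the 12972 tested genes were higher and 3.61% lower, 13.4% in either direction. In the authors' deposited table the median log2 fold change (log2 change below) was 2.53 for the effector-side factors, -0.58 for the naive and memory side, and 0.04 for all tested genes. The 2 cTKO libraries stood above the 2 WT libraries for 5 factors and below both for 3, against 31.3% and 28.3% of the tested genes with reads worked back. RNA from sorted populations cannot tell a change in the number of cells of a type from a change in RNA per cell.

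**Figure D1:**
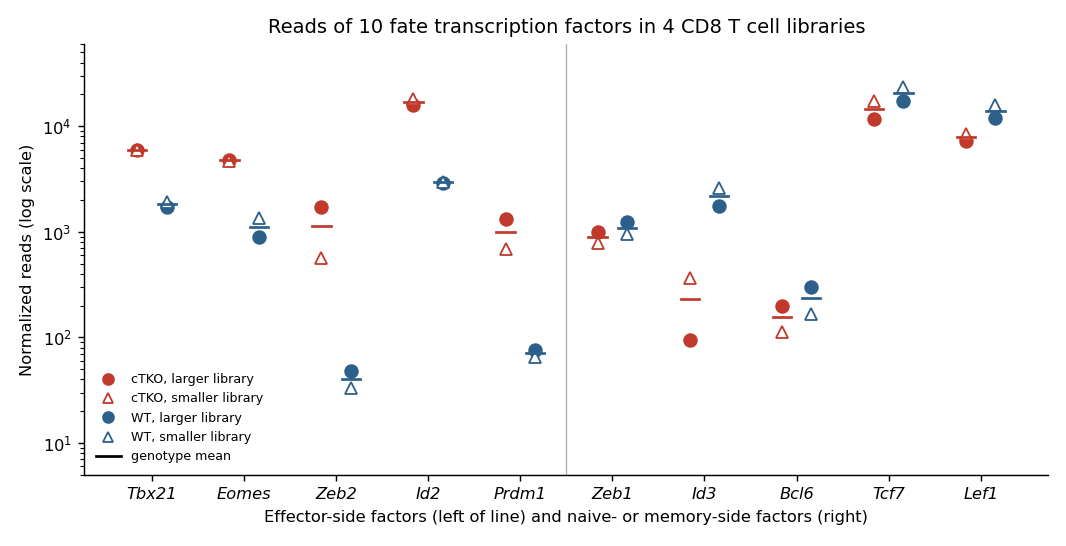
Normalized reads (log scale) of the 10 factors in the 2 cTKO libraries (red) and the 2 WT libraries (blue), with circles for the larger library of a genotype, triangles for the smaller and a bar for the genotype mean. The 5 effector-side factors at left are higher in both cTKO libraries, Id3 is lower in both, and Zeb1 and Bcl6 overlap.

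Tbx21 (Entrez 57765, chromosome 11, 97098007 to 97115331, minus strand, GRCm38.p6 as for all positions here) codes for T-bet, the T-box factor that directs type 1 and cytotoxic programmes. It had 5928 and 5922 normalized reads in cTKO libraries, against 1712 and 1918 in WT libraries. The 2 cTKO libraries were almost equal and lay far above both WT libraries. The log2 change in the authors' deposited table was 1.71 (SE 0.29 and adjusted p 1.86e-07), a 3.27-fold rise. Eomes (Entrez 13813, chromosome 9, 118478186 to 118486132, plus strand), the related T-box factor shared by memory CD8 T cells and natural killer cells, had 4757 and 4719 normalized reads in cTKO libraries, against 902 and 1336 in WT libraries. Here too the cTKO libraries were level with each other and above both WT libraries. The authors' deposited table gave a log2 change of 2.08 for Eomes (SE 0.32 and adjusted p 4.18e-09), which is 4.24-fold.

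Per kilobase of its principal transcript, Tbx21 stood above Eomes in every library. The ratio of Tbx21 to Eomes in reads per kb was 1.78 and 1.8 in cTKO libraries, against 2.72 and 2.05 in WT libraries. The groups did not overlap, and Eomes made up a larger part of the pair's level in each cTKO library. This shift was small, -0.38 on the log2 scale between the deposited fold changes, and was not tested. Among single tested genes with reads worked back, 31.3% had both cTKO libraries above both WT libraries and 28.3% below. The summed level of both T-box genes was 3719 and 3706 normalized reads per kb in cTKO libraries, against 941 and 1146 in WT libraries.

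Zeb2 (Entrez 24136, chromosome 2, 44983512 to 45117442, minus strand) codes for a zinc finger repressor that acts with T-bet in terminal effector cells. Of the 10 factors it had the largest fold change. It was counted with 2055 and 459 reads in cTKO libraries, against 58 and 29 in WT libraries. After normalization these were 1702 and 570 in cTKO libraries, against 47.8 and 33.5 in WT libraries. Both cTKO libraries stood above both WT libraries, and the larger cTKO library held 2.98 times the level of the smaller one. The log2 change in the authors' deposited table was 4.80 (SE 0.49 and adjusted p 3.12e-20), or 27.8-fold. Between the larger libraries alone it was 5.16 on the log2 scale and between the smaller libraries alone 4.09. The noncoding gene Zeb2os, which overlaps Zeb2, had 22 and 3 reads in cTKO libraries, against 0 and 0 in WT libraries. It did not pass (adjusted p 0.0683 from the authors' deposited table), and whether counting used the strand is not given in the sources used here.

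Prdm1 (Entrez 12142, chromosome 10, 44437174 to 44528558, minus strand) codes for Blimp-1, a repressor that promotes terminal differentiation and opposes Bcl6. It had 1585 and 549 reads in cTKO libraries, against 93 and 56 in WT libraries, and 1313 and 682 normalized reads in cTKO libraries, against 76.6 and 64.7 in WT libraries. The cTKO libraries differed from each other, the larger being 1.92 times the smaller, and both were above WT. In the authors' deposited table the log2 change was 3.82 (SE 0.41 and adjusted p 2.29e-18), a 14.1-fold rise.

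Id2 (Entrez 15902, chromosome 12, 25093799 to 25096092, minus strand) codes for an inhibitor of E proteins that supports effector cells. It had 15934 and 18016 normalized reads in cTKO libraries, against 2884 and 2973 in WT libraries. Both groups were tight and far apart. The log2 change was 2.53 in the authors' deposited table (SE 0.29 and adjusted p 1.52e-16), which is 5.8-fold, and the larger and smaller libraries taken alone gave 2.47 and 2.60.

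The windows upstream of 3 of the risen genes are shown because T-bet, Zeb2 and Blimp-1, the proteins of these genes, bind DNA through short motifs. The Prdm1 window lies inside the annotated span of that gene, at the start that RefSeq lists for it. These windows are the 250 bases before the start that RefSeq lists on GRCm38.p6, 5′ to 3′ on the gene's strand, at chr11:97115332-97115581 for Tbx21, chr10:44458749-44458998 for Prdm1 and chr2:45117443-45117692 for Zeb2, all on the minus strand. Capitals mark the E-box bound by Zeb proteins, searched as CACCTG and, for the other strand, CAGGTG.
Tbx21: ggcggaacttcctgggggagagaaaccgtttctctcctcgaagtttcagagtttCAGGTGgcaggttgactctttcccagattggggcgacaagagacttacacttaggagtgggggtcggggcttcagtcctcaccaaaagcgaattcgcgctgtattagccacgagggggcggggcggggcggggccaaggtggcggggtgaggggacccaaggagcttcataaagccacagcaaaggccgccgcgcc
Prdm1: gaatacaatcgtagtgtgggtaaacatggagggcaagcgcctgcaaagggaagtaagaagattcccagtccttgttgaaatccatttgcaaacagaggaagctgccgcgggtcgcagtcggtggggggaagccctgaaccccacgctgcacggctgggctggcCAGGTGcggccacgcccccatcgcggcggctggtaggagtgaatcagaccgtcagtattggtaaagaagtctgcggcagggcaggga
Zeb2: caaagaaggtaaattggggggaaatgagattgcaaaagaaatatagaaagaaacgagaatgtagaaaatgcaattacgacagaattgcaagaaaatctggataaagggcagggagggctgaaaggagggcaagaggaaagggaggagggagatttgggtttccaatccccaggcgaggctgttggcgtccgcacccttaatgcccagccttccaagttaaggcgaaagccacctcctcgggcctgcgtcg
The E-box stood once in the Tbx21 window and once in the Prdm1 window, and in no other of the 6 called factors. Of 27025 mouse promoter windows of the same length, 17.1% held it. The letters searched for TCF and LEF factors (CTTTGA, or TCAAAG), for T-box factors (GGTGTGA, or TCACACC) and for Blimp-1 (GAAAGTG, or CACTTTC) were in none of the 6 windows, and in 14%, 3.31% and 3.97% of all windows. A match is a stretch of letters in this window and says nothing of binding.

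Id3 (Entrez 15903, chromosome 4, 136143822 to 136145392, plus strand), the Id protein of naive and long-lived memory precursor CD8 T cells, was the 1 factor that was lower. It had 114 and 293 reads in cTKO libraries, against 2144 and 2234 in WT libraries. The normalized reads were 94.4 and 364 in cTKO libraries, against 1765 and 2580 in WT libraries. Each cTKO library was below each WT library, and the smaller cTKO library had 3.86 times the level of the larger. The log2 change in the authors' deposited table was -3.25 (SE 0.49 and adjusted p 1.83e-09), 9.52-fold lower in cTKO. Between the larger libraries alone it was -4.22, and between the smaller ones -2.83.

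The paired Id genes moved apart, and their balance turned over. Id2 over Id3 in reads per kb was 110 and 32.1 in cTKO libraries, against 1.06 and 0.748 in WT libraries. In WT cells the 2 genes were thus near parity, and in cTKO cells nearly all of the pair's level was Id2. The summed level of both was 8166 and 9434 normalized reads per kb in cTKO libraries, against 2846 and 3529 in WT libraries, so the gain of Id2 was larger than the loss of Id3. Their protein targets, the E proteins, did not pass: Tcf3 (E2A) had 2394 and 2324 normalized reads in cTKO libraries, against 1949 and 2330 in WT libraries, with a log2 change of 0.14 and an adjusted p of 0.808 in the authors' deposited table. Tcf12 (HEB) had 1945 and 1554 in cTKO libraries, against 1620 and 1441 in WT libraries, with a log2 change of 0.19 and an adjusted p of 0.738 in the authors' deposited table. The groups overlapped for both. Of 6 tested genes in the list of E and Id proteins, 1 was higher and 1 lower, and these were Id2 and Id3 themselves. The list had a median log2 change of -0.26 in the authors' deposited table, where 9.77% of all tested genes were higher and 3.61% lower.

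Zeb1 (Entrez 21417), the Zeb paralogue kept in naive and memory cells, had 1005 and 779 normalized reads in cTKO libraries, against 1239 and 955 in WT libraries. The groups overlapped. The log2 change was -0.30 in the authors' deposited table (SE 0.33 and adjusted p 0.609), with a 95% Wald interval of -0.94 to 0.35 computed from it. Zeb2 over Zeb1 in reads per kb was 1.08 and 0.465 in cTKO libraries, against 0.0245 and 0.0223 in WT libraries. Nearly all of the pair's level in WT libraries was thus Zeb1. In the larger cTKO library the 2 genes were near parity, and in the smaller one Zeb1 was 2.15 times Zeb2.

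Bcl6 (Entrez 12053, chromosome 16, 23965050 to 23988866, minus strand), the repressor that opposes Blimp-1, had 241 and 91 reads in cTKO libraries, against 364 and 145 in WT libraries. The normalized reads of 200 and 113 in cTKO libraries overlapped with 300 and 167 in WT libraries. The authors' deposited table gave a log2 change of -0.58 (SE 0.47 and adjusted p 0.458), with an interval of -1.50 to 0.34. Prdm1 over Bcl6 in reads per kb was 5.76 and 5.28 in cTKO libraries, against 0.224 and 0.338 in WT libraries, so Prdm1 was above Bcl6 in cTKO cells and below it in WT cells.

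Tcf7 (Entrez 21414, chromosome 11, 52246527 to 52283383, minus strand), which codes for TCF-1, and Lef1 (Entrez 16842, chromosome 3, 131110297 to 131224357, plus strand) are the HMG box factors of the naive and stem-like programme. Tcf7 had 11672 and 17253 normalized reads in cTKO libraries, against 17411 and 23608 in WT libraries. Both cTKO libraries were below both WT libraries, but the smaller cTKO library came close to the larger WT one. The log2 change in the authors' deposited table was -0.50 (SE 0.33 and adjusted p 0.325, interval -1.14 to 0.13). Tcf7 overlaps the end of Skp1a in the annotation, a gene with 4669 and 7537 normalized reads in cTKO libraries, against 7064 and 7231 in WT libraries, and reads of the overlap may have been split between them.

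Lef1 had 7298 and 8522 normalized reads in cTKO libraries, against 11920 and 15908 in WT libraries. The groups did not overlap. Its log2 change of -0.81 (SE 0.30) had an adjusted p of 0.0523 in the authors' deposited table, just above the threshold of 0.05, with an interval of -1.41 to -0.22. Tcf7 over Lef1 in reads per kb was 2.25 and 2.85 in cTKO libraries, against 2.06 and 2.09 in WT libraries. Of the 5 pairs this ratio moved least, by 0.31 on the log2 scale between the deposited fold changes of its members, against 5.79 for Id2 and Id3, 5.10 for Zeb2 and Zeb1, 4.40 for Prdm1 and Bcl6, and -0.38 for Tbx21 and Eomes.

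**Figure D2:**
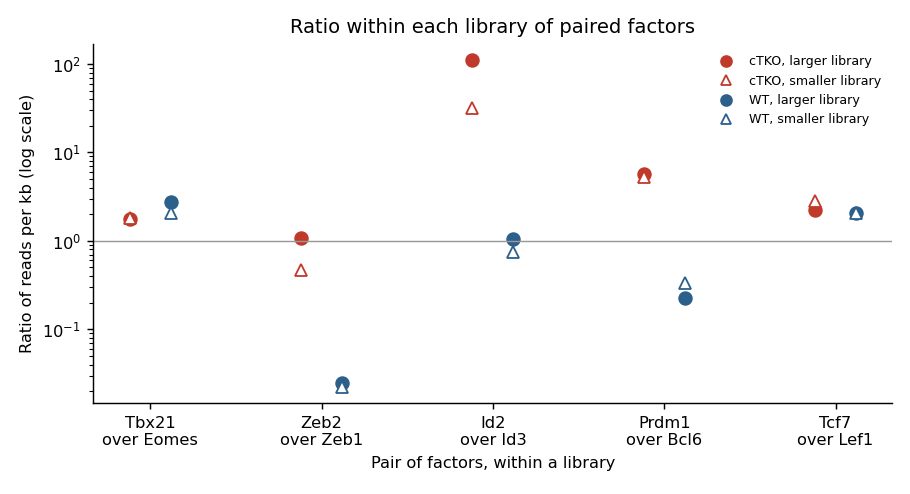
Ratio of reads per kb (log scale) of 5 pairs of factors within each library, cTKO in red and WT in blue, with circles for the larger and triangles for the smaller library of a genotype and a line at a ratio of 1. The Id2 over Id3, Zeb2 over Zeb1 and Prdm1 over Bcl6 ratios are higher in both cTKO libraries, with Prdm1 over Bcl6 at 5.76 and 5.28 in cTKO and 0.224 and 0.338 in WT, while Tcf7 over Lef1 stays between 2.06 and 2.85.

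**Figure D3:**
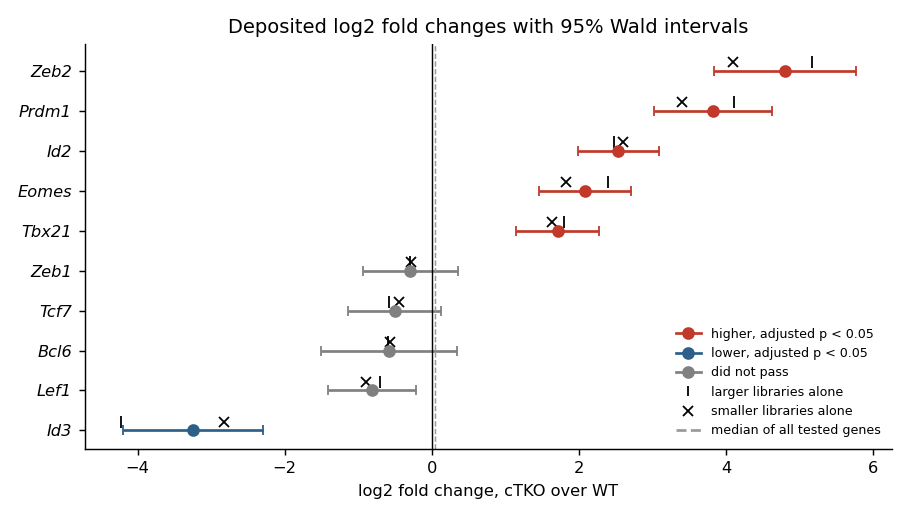
Deposited log2 changes, cTKO over WT, of the 10 factors with 95% Wald intervals (horizontal bars), and the fold between the larger libraries alone (upright ticks) and between the smaller ones alone (crosses). The 5 effector-side factors run from 1.71 for Tbx21 to 4.80 for Zeb2, Id3 is at -3.25, and the dashed line marks the median of all tested genes at 0.04.

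Per kilobase of transcript the order of the factors differed between the genotypes. In cTKO cells Id2 had the highest level, with a mean of 8622 normalized reads per kb, followed by Tcf7 at 5853, Tbx21 at 2382, Lef1 at 2272 and Eomes at 1331. In WT cells Tcf7 came first at 8300, followed by Lef1 at 3996, Id3 at 1700, Id2 at 1488, Tbx21 at 730 and Eomes at 314. Tbx21 and Lef1 overlapped in cTKO libraries, and Id3 and Id2 overlapped in WT libraries. At the low end the cTKO means were 248 for Prdm1, 179 for Id3, 154 for Zeb1, 125 for Zeb2 and 44.4 for Bcl6, and the first 4 of these overlapped. The WT means were 190 for Zeb1, 66.2 for Bcl6, 17.6 for Prdm1 and 4.45 for Zeb2, each apart from the next.

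The 2 cTKO libraries did not stand at the same distance from WT. For Zeb2, Prdm1 and Id3 the larger cTKO library was further from WT than the smaller one, while Tbx21, Eomes and Id2 were nearly level in both. Among all genes called higher in the authors' deposited table, 405 of 1239 with reads worked back had more than 2 times as much in the larger cTKO library as in the smaller, and 31 had the reverse. By limma the direction and the call of each factor held when any 1 library was left out. With the larger cTKO library left out the log2 change of Zeb2 was 3.82 by limma, and with the smaller one left out 5.39. The same fits gave -2.55 and -4.49 for Id3.

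**Figure D4:**
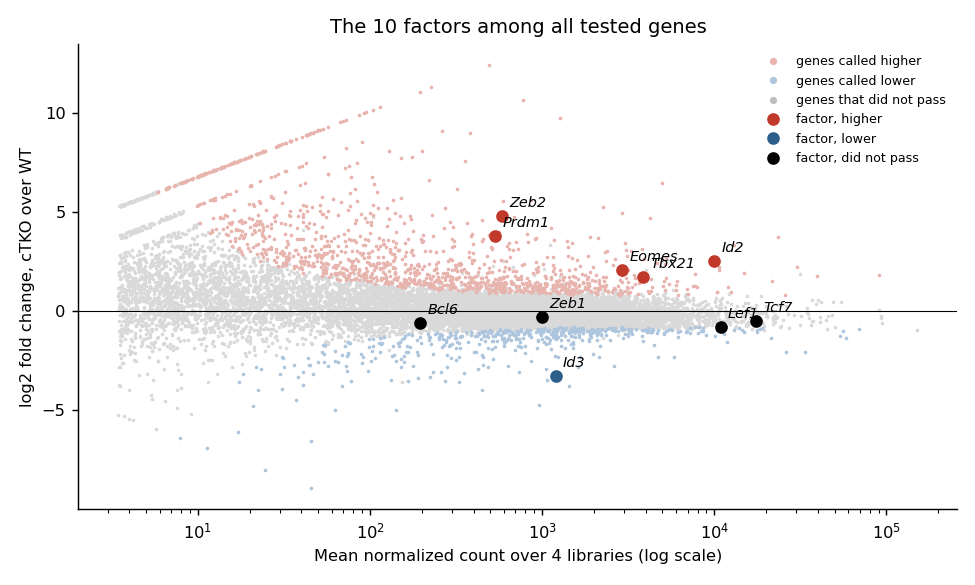
Mean normalized count over 4 libraries (log scale) against the deposited log2 change, cTKO over WT, of the 12972 tested genes, with the 10 factors as large points. The 6 called factors lie outside the grey cloud of genes that did not pass, with Id2 at a mean of 9952. Lef1, at -0.81, lies near the lower edge of the cloud, and Tcf7, at -0.50, lies within it.

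Of the co-factors of these proteins, 1 in each of 2 lists passed the test, where 13.4% of all tested genes did. Of 10 tested genes of the Tcf and Lef family and their partners, 1 was higher and 0 lower, with a median log2 change of -0.30 in the authors' deposited table. Without Tcf7 and Lef1 themselves the other 8 had a median log2 change of 0.28 in the authors' deposited table, again with 1 higher and 0 lower. Over all 10, an unadjusted p under 0.05 gave 2 higher and 2 lower, and limma gave 1 and 0. Tle3, a Groucho co-repressor, was the higher one, with 1665 and 427 normalized reads in cTKO libraries, against 234 and 248 in WT libraries (log2 change 2.12, SE 0.50 and adjusted p 0.000464 from the authors' deposited table). Its cTKO libraries were both above WT and far apart from each other, and without the larger one Tle3 did not pass by limma (log2 change 0.83, adjusted p 0.133). Of 12 tested co-repressors used by Zeb proteins, Bcl6 and Blimp-1, 0 were higher and 1 lower, with a median of -0.33 in the authors' deposited table. At an unadjusted p under 0.05 there were 1 higher and 3 lower, and by limma 0 and 1. The lower one was Rcor1, which codes for the CoREST scaffold, with 304 and 471 normalized reads in cTKO libraries, against 999 and 1052 in WT libraries (log2 change -1.41, SE 0.35 and adjusted p 0.00104 from the authors' deposited table). Rcor1 did not pass by limma without the larger or the smaller WT library (adjusted p 0.0982 and 0.114). Ncor1 and Ctbp1, the co-repressors with the highest means that did not pass, had log2 changes of -0.58 and -0.65 in the authors' deposited table.

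Other regulators of effector and memory fate moved both ways. Of 23 tested, 6 were higher and 2 lower, where 9.77% of all tested genes were higher and 3.61% lower. The median log2 change was 0.30 in the authors' deposited table. Bhlhe40, a repressor active in effector and tissue-resident T cells, had 1172 and 689 normalized reads in cTKO libraries, against 77.4 and 45 in WT libraries, and its log2 change of 3.92 (SE 0.42 and adjusted p 1.93e-18) in the authors' deposited table was the largest of the list. Runx2, a Runt factor of long-lived memory cells, had 835 and 472 normalized reads in cTKO libraries, against 95.5 and 103 in WT libraries (log2 change 2.72, adjusted p 1.03e-09 from the authors' deposited table). In both genes the cTKO libraries were above WT, with the larger one highest. Myb, a factor of stem-like T cells, had 131 and 160 normalized reads in cTKO libraries, against 479 and 567 in WT libraries, and was 3.6-fold lower in the authors' deposited table (log2 change -1.85, adjusted p 1.69e-05). Tox, which acts in T cell development and exhaustion, had 503 and 714 normalized reads in cTKO libraries, against 1675 and 1334 in WT libraries, and was 2.48-fold lower in the authors' deposited table (adjusted p 0.00171). For Myb and Tox the groups did not overlap, but Tox did not pass by limma without the larger or the smaller WT library (adjusted p 0.28 and 0.0714). The count of higher regulators was 6 in the authors' deposited table and 3 by limma on all 4 libraries, 2 without the larger WT library and 3 without the smaller WT library. Satb1 and Klf2, with the highest means of those that did not pass, had log2 changes of -0.10 and 0.30 in the authors' deposited table.

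Genes that the effector-side factors are known to activate were higher as a group by count. The list, like the others here, was chosen with earlier results of these data known, so its count is a description. Of 17 tested, 15 were higher and 0 lower, where 9.77% of all tested genes were higher and 3.61% lower. The median log2 change was 2.72 in the authors' deposited table. At an unadjusted p under 0.05 the counts were again 15 and 0, and by limma 13 and 0 of the 14 with reads worked back. Il12rb2, an interleukin 12 receptor chain induced by T-bet, had 916 and 1155 normalized reads in cTKO libraries, against 64.2 and 71.6 in WT libraries, a 15.3-fold rise in the authors' deposited table (adjusted p 2.25e-25). S1pr5, which T-bet and Zeb2 induce, had 4693 and 4108 normalized reads in cTKO libraries, against 128 and 98.1 in WT libraries. Klrc1, an inhibitory receptor gene, had 7079 and 6642 in cTKO libraries, against 897 and 656 in WT libraries. For these 3 genes every cTKO library was above every WT library. Ccl5, a chemokine stored by memory and effector cells, has too high a mean for reads to be worked back, and had a log2 change of 3.76 in the authors' deposited table. Prf1, the pore protein gene, did not pass, with 3838 and 3985 normalized reads in cTKO libraries, against 5685 and 3538 in WT libraries, a log2 change of -0.24 and an adjusted p of 0.69 in the authors' deposited table. Nkg7, a granule protein gene, did not pass either, with a log2 change of 0.16 and an adjusted p of 0.792 in the authors' deposited table.

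Genes kept on by TCF-1, Lef1, Id3 or Bcl6 in naive and memory cells were lower for the most part where they passed. This list too was chosen with earlier results of these data known. Of 15 tested, 6 were lower and 1 higher, where 3.61% of all tested genes were lower and 9.77% higher. The median log2 change was -0.95 in the authors' deposited table. At an unadjusted p under 0.05 there were 8 lower and 2 higher, and by limma 4 and 1 of the 13 with reads worked back. Rapgef4, a Rap1 exchange factor, had 297 and 309 normalized reads in cTKO libraries, against 1311 and 1283 in WT libraries, and was 4.28-fold lower in the authors' deposited table (adjusted p 2.3e-09). Ccr9, a chemokine receptor of naive CD8 T cells, had 352 and 824 in cTKO libraries, against 1792 and 2471 in WT libraries, and was 3.63-fold lower in the authors' deposited table. Both genes had non-overlapping groups. Ltb, which codes for lymphotoxin beta, had a log2 change of -1.37 in the authors' deposited table (adjusted p 0.00267). The survival gene Bcl2 went the other way, with 13457 and 14227 normalized reads in cTKO libraries, against 5950 and 7993 in WT libraries (log2 change 0.99, adjusted p 0.0115 from the authors' deposited table). S1pr1, a receptor gene for exit from lymphoid organs, did not pass, at a log2 change of -0.45 in the authors' deposited table. Without the larger WT, the smaller WT or the larger cTKO library, Bcl2 did not pass by limma (adjusted p 0.477, 0.085 and 0.063).

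**Figure D5:**
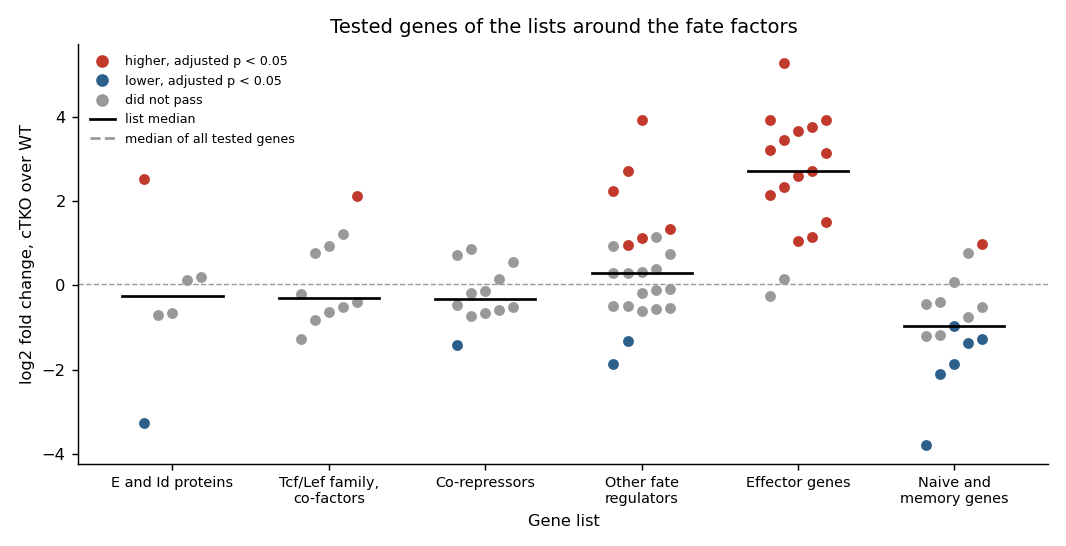
Deposited log2 changes, cTKO over WT, of the tested genes in 6 lists around the factors, each point a gene, red where higher, blue where lower and grey where it did not pass, with a bar at the list median and a dashed line at the median of all tested genes. The effector genes have the highest median at 2.72 and the naive and memory genes the lowest at -0.95, while E and Id proteins, the Tcf and Lef family with its co-factors (Tcf7 and Lef1 included) and co-repressors have medians between -0.33 and -0.26.

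The cell type was checked with markers fixed by list, since several of the risen factors are also active in natural killer and myeloid cells. The marker counts here and in the next paragraph stand beside 9.77% of all tested genes higher and 3.61% lower. CD8 identity genes were present, with log2 changes of -0.32 for Cd8a and -0.27 for Cd8b1 in the authors' deposited table (adjusted p 0.539 and 0.642). Of 9 CD8 T cell markers 0 were higher and 1, the signalling adaptor Lat, was lower, and the 7 with reads worked back summed to 46142 and 69090 normalized reads in cTKO libraries, against 85443 and 78849 in WT libraries. Of 7 natural killer markers 5 were higher and 1 lower, and they summed to 3111 and 2236 in cTKO libraries, against 483 and 435 in WT libraries. By the deposited values Klra8 was 45.4-fold higher, Tyrobp 12.4-fold, Klrb1c 8.48-fold, Klri2 7.77-fold and Klre1 4.3-fold. Each of these 5 stood above both WT libraries in both cTKO libraries. Klra8 had 206 and 75 reads in cTKO libraries, against 3 and 3 in WT libraries. The defining natural killer gene Ncr1 did not pass, with 22 and 1 reads in cTKO libraries, against 2 and 4 in WT libraries. Fcer1g was the lower one. Activated and memory CD8 T cells can also express several of the receptors in this list. Without the larger WT library Lat (adjusted p 0.226) and Fcer1g (adjusted p 0.138) did not pass by limma, and without the larger cTKO library Lat did not (adjusted p 0.132).

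Of 7 tested myeloid and dendritic markers 2 were higher and 0 lower, and the 9 in the table summed to 2466 and 822 in cTKO libraries, against 95.5 and 111 in WT libraries. Most of that sum was Itgax, with 2429 and 509 reads in cTKO libraries, against 56 and 44 in WT libraries, and Itgam, with 434 and 138 in cTKO libraries, against 34 and 30 in WT libraries. The myeloid lysozyme gene Lyz2 was present in all 4 libraries, with 43 and 6 reads in cTKO libraries, against 20 and 11 in WT libraries. Csf1r had 25 and 6 reads in cTKO libraries, against 2 and 3 in WT libraries. The granule protein genes S100a8 and S100a9 had reads in the larger cTKO library alone, 22 and 19. The other 3, Siglech, Adgre1 and Flt3, had 0 to 4 reads in cTKO libraries and 0 to 8 in WT libraries. Of 5 tested B cell markers 0 were higher and 1, Cd79b, lower, and the sums over 7 were 943 and 272 in cTKO libraries, against 1545 and 1121 in WT libraries. Cd22 held most of the sum in the larger cTKO library, with 748 and 47.2 normalized reads in cTKO libraries, against 171 and 151 in WT libraries. Cd79b held most of the WT sums, with 146 and 180 normalized reads in cTKO libraries, against 1327 and 880 in WT libraries. Cd79a had 44 and 25 reads in cTKO libraries, against 47 and 67 in WT libraries, Ms4a1 had 7 and 3, against 3 and 5, and Pax5 had 0 and 1, against 0 and 0. Of 4 tested CD4 and regulatory T cell markers 1, Zbtb7b, was higher and 0 lower, and the sums over 5 were 271 and 161 in cTKO libraries, against 199 and 192 in WT libraries, with Cd4 at 1 and 0 reads, against 1 and 4. Zbtb7b did not pass by limma without the larger WT or the larger cTKO library (adjusted p 0.0503 and 0.143). Of 3 tested erythroid and platelet markers 0 were higher or lower, and the 5 with reads summed to 46.4 and 12.4 in cTKO libraries, against 10.7 and 77.4 in WT libraries. At an unadjusted p under 0.05 the marker directions with 0 calls gave 0 as well, and by limma also 0. The natural killer and myeloid sums were higher in both cTKO libraries, as the effector-side factors were, and their part in these results was not tested.

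Genes whose levels followed a called factor most closely were named by the mean absolute difference of centred log2 normalized reads over the 4 libraries. Zeb2 was followed most closely by Itgax, with a difference of 0.18 on the log2 scale, by Pilrb1 at 0.20 and by Nebl at 0.24. Eomes was closest to Cercam at 0.01, and Tbx21 to Rgs1 at 0.05. Id2 was closest to Gem at 0.07 and Klrc2 at 0.08, and Prdm1 to Fgfr1 at 0.07. Id3 was followed most loosely, by Ramp1 at 0.24 and Sox4 at 0.31. With 4 libraries many genes share a pattern, and this is a description of these libraries.

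Of 20 genes that flank the factors on their chromosomes, the nearest tested gene with a mean of at least 10 on each side, 4 were higher, 1 was lower and 15 did not pass, where 9.77% of all tested genes were higher and 3.61% lower. Tbkbp1, 20.8 kb from Tbx21, had 186 and 78.3 normalized reads in cTKO libraries, against 9.06 and 13.9 in WT libraries (log2 change 3.55, adjusted p 4.91e-06 from the authors' deposited table). Kidins220, 30.6 kb from Id2, had 3004 and 1011 in cTKO libraries, against 612 and 642 in WT libraries, with a log2 change of 1.68 in the authors' deposited table. Both genes were above WT in each cTKO library, and Kidins220 did not pass by limma without the larger WT, the smaller WT or the larger cTKO library (adjusted p 0.0848, 0.0547 and 0.128). E2f2, 26.9 kb from Id3, had 506 and 335 normalized reads in cTKO libraries, against 123 and 100 in WT libraries, and rose with a log2 change of 1.91 in the authors' deposited table while Id3 fell. Acvr2a, the other higher gene, lies 3697 kb from Zeb2, and Rtp4, the lower one, 351 kb from Bcl6. Rtp4 did not pass by limma without the larger WT library (adjusted p 0.496). No neighbour of Eomes, Zeb1, Prdm1, Tcf7 or Lef1 passed.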

How the data were processed

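Sorted spleen CD8 T cells were compared between 2 cTKO and 2 WT mice, 1 female and 1 male each. STAR and DESeq2 were used on mm10 and GRCm38.p6, per the submitters' processing notes, and the counting tool, strand handling and versions are not given in any source used. The authors' table gives, per the file headers, a mean normalized count (a signal over all 4 libraries), a log2 fold change with its SE, a test score, and a p-value with its adjusted p-value, all as deposited. The authors gave 12972 genes an adjusted p, and calls use it at 0.05.

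Whole reads per library were worked back where 1 set of 4 whole numbers gave the deposited mean, fold change (within 7e-10) and SE, for 18031 of 18088 genes with a mean above 0 and below 20000 (99.7%). In simulated reads every single solution was right, for example 640 of 640 genes with means of 100 to 1000. limma (version 3.58.1, R 4.3.3) on log2 CPM of these reads, with 0.5 added and a mean of at least 10, was an alternative test, and on simulated data it recovered 79% of 200 genes changed 4-fold. Intervals are 95% Wald intervals. Reads per kb use the principal transcript of GENCODE vM21. Positions and promoters are RefSeq on GRCm38.p6, matched for 24387 of 24421 genes, and promoter sequences for 9 of the 10 factors.

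The members and lists were chosen with earlier results of these data known. Named genes are the 10 factors, the markers, the H1 genes read as deleted, and neighbours and likest genes. In each list up to 4 with the smallest p among those that passed are named, and the 2 with the highest means that did not. Some genes under this rule are not reported here. No list was tested.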

Additional observations from a re-analysis of the deposited data

How the results depend on the processing

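In 11 other settings with a test, all 110 results of a factor kept their direction and their side of the threshold. The settings with no filter on the mean, re-centred fold changes, an adjusted p under 0.01 or at least 2-fold required reuse the deposited values. At an adjusted p under 0.01 and at least 2-fold, the results for the factors were fixed beforehand. The other settings that reuse deposited values are not independent of the main result. Between the larger libraries alone the log2 fold changes were 1.79 for Tbx21, 2.40 for Eomes, 5.16 for Zeb2 and -4.22 for Id3. Counts over genes and lists moved more, and the cause was not tested. At an adjusted p under 0.01, 824 genes were higher and 230 lower in all, with 2 other regulators higher, 0 naive and memory genes higher and 3 lower. After re-centring, 1 co-repressor and 2 naive and memory genes were higher, and with at least 2-fold required, 0 naive and memory genes. By limma with either pseudocount, 3 other regulators were higher. By limma without 1 library in turn (the lone library of a genotype is assumed to vary like the others), 743 to 2321 genes were higher and 116 to 1879 lower, the most without the smaller cTKO library. The same fits gave 0 to 3 higher and 0 to 1 lower among Tcf and Lef co-factors, 0 to 2 and 0 to 3 among co-repressors, 2 to 6 and 1 to 2 among other regulators, 0 to 1 higher among naive and memory genes, and 5 higher and 1 lower of the 10 factors. No paired analysis was possible because the labels pair no animals across genotypes, and worked-back libraries could be matched to animals only by their values.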
